A study of Mus musculus with 4 samples.

Results

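The cadherin superfamily and the desmosome were followed in RNA from mouse lung ECs (endothelial cells), with 120 gene symbols taken from the 24063 in the count tables. Symbols made of Cdh, Dsg, Dsc or Pkp and a number, or of Pcdh and a number or a cluster letter, gave 109 of the members, and 11 more were listed by name, namely Fat1 to Fat4, Dchs1, Celsr1, Celsr2, Dsp, Jup, Ctnna1 and Ctnnd1. ECs were taken from C57BL6J mice of 8 weeks of age with anti-CD31 magnetic beads, 7 days after unilateral pneumonectomy (PNX, removal of the left lung) or from sham-operated mice, which underwent the thoracotomy and kept the lung. The labels name no transgene or deletion in either group. With 2 libraries in a group, and the cells of 2 mice pooled for each, the spread between mice within a pool is not seen. In all, 98 of the 120 members passed the filter on low counts and were tested across all 16208 genes kept. The other 22 had too few reads, and a gene kept because of the group where it was high had to differ, so the 98 do not stand for all members.

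Cadherins are transmembrane proteins that hold neighbouring cells together through calcium-dependent contacts of their extracellular repeats. Inside the cell, the classical cadherins bind catenins, which link adherens junctions to actin, while the desmosomal cadherins (desmogleins and desmocollins) bind plakoglobin, plakophilins and desmoplakin, which anchor them to intermediate filaments. ECs are held together mainly by VE-cadherin, the product of Cdh5, and are not known to form classical desmosomes, so plakoglobin serves there at adherens junctions. Protocadherins are related proteins with weaker adhesion of their own, and many of them lie in gene clusters in which a variable first exon is spliced to constant exons that the whole cluster shares.

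The libraries held between 41367438 and 50952879 reads on genes with 1 transcript counted per symbol, and a floor of 3 counts came to between 0.0589 and 0.0725 CPM (counts scaled to the size of the library). Replicates differed little, with a median SD of log2 normalized counts of 0.037 in sham and 0.035 in post-PNX libraries. The mice were described as male, but all 46 Y-linked genes were at 0 in every library and Xist had 29890 to 36875 counts. These counts do not bear out that description in either group, and the reason was not tested. Markers of other cell types were present in all 4 libraries. The summed normalized counts of 12 endothelial markers were 471491 and 476953 in sham against 392211 and 392857 in post-PNX libraries, and those of 12 epithelial markers were 442868 and 445426 against 273916 and 270932. Over the same libraries the sum of 6 mesothelial markers went from 7352 and 7470 to 19302 and 19489, and that of 7 fibroblast markers from 61429 and 62019 to 223349 and 224945. No list had a gene at 0 in all libraries. Fewer cells of a type and less RNA per cell cannot be told apart in these bulk samples, and the part of cell composition in any result that follows was not tested.

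By edgeR's quasi-likelihood test with an adjusted p under 0.01, 46 of the 98 tested members were upregulated after PNX and 27 were downregulated, beside 29.3% and 27.8% of all genes tested. With a change beyond 2-fold required as well, 4 members were upregulated (Cdh2, Cdh3, Cdh8 and Cdh22) and 1 was downregulated (Pcdh20), beside 5.90% and 1.66% of all genes tested. Of these, Cdh8 passed the filter only through its post-PNX libraries, so its call was in part fixed by the filter. Over the members tested, log2 fold changes had a median of 0.16, against 0.00 over all genes tested. The 2 groups of libraries did not overlap in 86 of the 98 tested members, beside 81.2% of all genes tested. A gap between the groups was thus common in these data and not particular to the members. These counts include 39 alpha and gamma protocadherin symbols that draw largely on the same reads. Without them, 21 of 59 members (35.6%) were upregulated, 13 (22.0%) were downregulated and 25 were not called, with a median of 0.12, so that the share upregulated lay nearer to that of all genes.

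**Figure D1:**
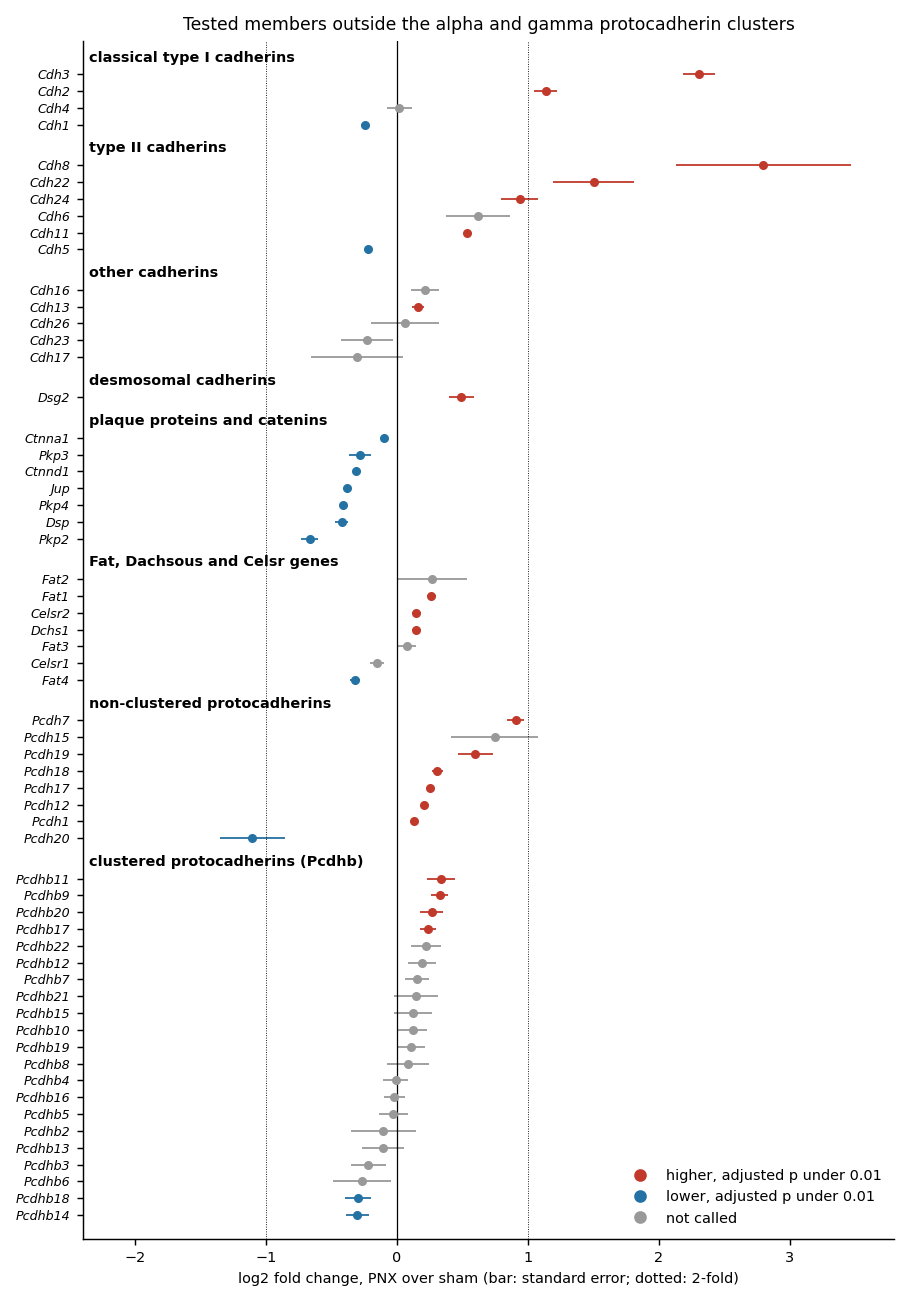
Log2 fold changes (post-PNX over sham, horizontal axis, with standard errors) of the 59 tested members outside the alpha and gamma protocadherin clusters, grouped by role and coloured by call. All 7 plaque and catenin genes lie left of 0, while Cdh2, Cdh3, Cdh8 and Cdh22 lie beyond the dotted line at 2-fold on the right and Pcdh20 beyond that on the left.

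In level per transcript length, VE-cadherin stood far above the other cadherins. Cdh5 (chromosome 8, 104101613 to 104144504 in mm10) was at 376 ± 2.17 FPKM in sham and 324 ± 2.50 FPKM in post-PNX libraries (SD, n = 2 libraries), and held 89.6% of the FPKM summed over all Cdh symbols in sham and 86.5% after PNX. Of the 59 members counted on their own reads, 10 had a mean above 10 FPKM, 20 lay between 1 and 10 FPKM, and 29 were at 1 FPKM or less. After Cdh5, the highest were Ctnna1 at a mean of 159 FPKM over the 4 libraries, Jup at 102, Pcdh1 at 78.8, Ctnnd1 at 77.8, Pkp4 at 21.6, Cdh11 at 17.99, Cdh1 at 17.4, Pcdh12 at 14.1 and Pcdh17 at 10.2. Some places in this order changed between the groups. Ctnnd1 was above Pcdh1 in sham (86.0 against 75.0 FPKM) and below it after PNX (69.5 against 82.5 FPKM). Cdh11, at 14.6 FPKM in sham and 21.4 FPKM after PNX, passed both Cdh1 (18.8 and 16.0 FPKM) and Pkp4 (24.6 and 18.6 FPKM). These levels are the deposited FPKM, whereas normalized counts (scaled by TMM, which assumes that most genes do not change) compare libraries and not genes. Under that scaling 29.3% of all genes tested were called upregulated and 27.8% downregulated, so the assumption is open to doubt here.

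Among the classical cadherins of type I and type II, Cdh5 and Cdh1 fell, while Cdh2, Cdh3, Cdh11 and several with few reads rose. Cdh5 had 109837 and 110681 normalized counts in sham and 93964 and 95234 after PNX. The groups lay apart, with both post-PNX values the lower, and the log2 fold change was -0.22 (SE 0.015, edgeR adjusted p = 8.0e-20). This fall of 14.2% stood beside one of 17.2% in the summed counts of the 12 endothelial markers, among which Cdh5 was not included, and with libraries scaled to those markers the log2 fold change of Cdh5 was 0.05. The direction of Cdh5 thus depended on whether it was read against all genes or against these 12 markers as a set. At 0.05 Cdh5 was not called under the second scaling (edgeR adjusted p = 0.011). Single markers differed under TMM scaling, with 10 downregulated and 1 upregulated, from Eng at -0.54 to Pecam1 at -0.009 and Emcn at 0.11.

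Cdh1 encodes E-cadherin, the cadherin of epithelial adherens junctions. It had 6052 and 6171 normalized counts in sham and 5155 and 5150 in post-PNX libraries, which did not overlap, with a log2 fold change of -0.25 (SE 0.026, edgeR adjusted p = 6.2e-13) that was 0.02 under the scaling to endothelial markers. Its neighbour Cdh3 (chromosome 8, 106510852 to 106556911, next to Cdh1 at 106603350 to 106670247), which encodes P-cadherin, had 64.3 and 88.7 normalized counts in sham and 379 and 372 after PNX. All post-PNX values of Cdh3 were more than 4 times those of either sham library, and the log2 fold change was 2.31 (SE 0.12, edgeR adjusted p = 1.8e-25). These adjacent genes therefore moved in opposite directions under TMM scaling, and the difference between them was not tested.

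Cdh2 encodes N-cadherin, which ECs share with mesenchymal cells and with which they contact pericytes. It had 224 and 218 normalized counts in sham and 476 and 498 after PNX, with no overlap between the groups and a log2 fold change of 1.14 (SE 0.086, edgeR adjusted p = 2.9e-18). Cdh4, which encodes R-cadherin, had 283 and 270 against 284 and 276 normalized counts, and its groups overlapped (log2 fold change 0.02, SE 0.093, edgeR adjusted p = 0.87). Cdh15, a cadherin of muscle precursors, had at most 6 reads in any library and was not tested.

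Of the 13 type II cadherins, 6 were tested, 4 were upregulated and Cdh5 was the one downregulated, beside 29.3% and 27.8% of all genes tested. Cdh11 encodes OB-cadherin, known from osteoblasts and fibroblasts, and was below Cdh1 in FPKM in sham and above it after PNX. It had 4610 and 4474 normalized counts in sham and 6486 and 6689 in post-PNX libraries, so that both post-PNX values were higher (log2 fold change 0.54, SE 0.026, edgeR adjusted p = 5.7e-27). Cdh24 went from 76.1 and 92.8 to 154 and 168 normalized counts (log2 fold change 0.94, SE 0.14, edgeR adjusted p = 7.1e-08) and remained just inside 2-fold. Cdh22 went from 12.7 and 15.3 to 42.3 and 36.8 normalized counts (log2 fold change 1.50, SE 0.31, edgeR adjusted p = 2.4e-05).

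Cdh8, a cadherin known from the nervous system, was close to the limit of detection. It had 0 and 4.08 normalized counts in sham and 12.8 and 15.6 after PNX, and its log2 fold change of 2.80 (SE 0.67, edgeR adjusted p = 2.1e-04) rested on 4 reads in the sham group. It passed the filter on low counts only through the post-PNX libraries, with 13 and 14 reads. The filter thus fixed the direction in part, and the call is weak support. Without sham replicate 1 the value was 1.76 and the call was lost (edgeR adjusted p = 0.033), and without sham replicate 2 it was 6.84. Cdh6 had 31.7 and 30.6 against 49.1 and 46.8 normalized counts, which did not overlap but did not pass the threshold (log2 fold change 0.62, SE 0.24, edgeR adjusted p = 0.022). The other 7 type II members were not tested, among them Cdh7 with no read in any library and Cdh19, a marker of Schwann cells and the most abundant of the 7, with 10 and 10 reads in sham and 4 and 7 after PNX.

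Markers of several other cell types moved in the same direction as Cdh2, Cdh3 and Cdh11. All 6 mesothelial markers were upregulated, among them Msln with a log2 fold change of 1.97 and Wt1 with 2.68. Of the 7 fibroblast markers 5 were upregulated, with Col1a1 at 2.34, while Pdgfra was downregulated at -0.23 and Tcf21 stood at 0.02. Of 8 smooth muscle and pericyte markers 7 were upregulated and their summed counts were higher by 31.6%. The summed counts of 7 leukocyte markers were higher by 63.3%, with 3 of them upregulated and 3 downregulated, and those of 4 genes of dividing cells were 8.02-fold higher. Whether these cells contributed to the counts of Cdh2, Cdh3 and Cdh11 was not tested.

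The remaining Cdh symbols encode cadherins that lack the classical catenin-binding tail or have other domain layouts, and they changed little. Cdh13 encodes T-cadherin, which is held to the membrane by a lipid anchor and binds adiponectin on ECs. It had 1104 and 1137 normalized counts in sham and 1246 and 1257 after PNX, with no overlap and a log2 fold change of 0.16 (SE 0.047, edgeR adjusted p = 0.0023). That call was lost without sham replicate 1 (0.14), PNX replicate 1 (0.17) or PNX replicate 2 (0.15), and with the DESeq2 Wald test (adjusted p = 0.062). Cdh16, a kidney cadherin, had 183 and 201 against 215 and 230 normalized counts and was not called (log2 fold change 0.21, SE 0.11, edgeR adjusted p = 0.080), and Cdh26 had 34.4 and 34.7 against 31.4 and 41.2 (log2 fold change 0.06). Cdh17 and Cdh23 were not called either, with log2 fold changes of -0.30 and -0.23.

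**Figure D2:**
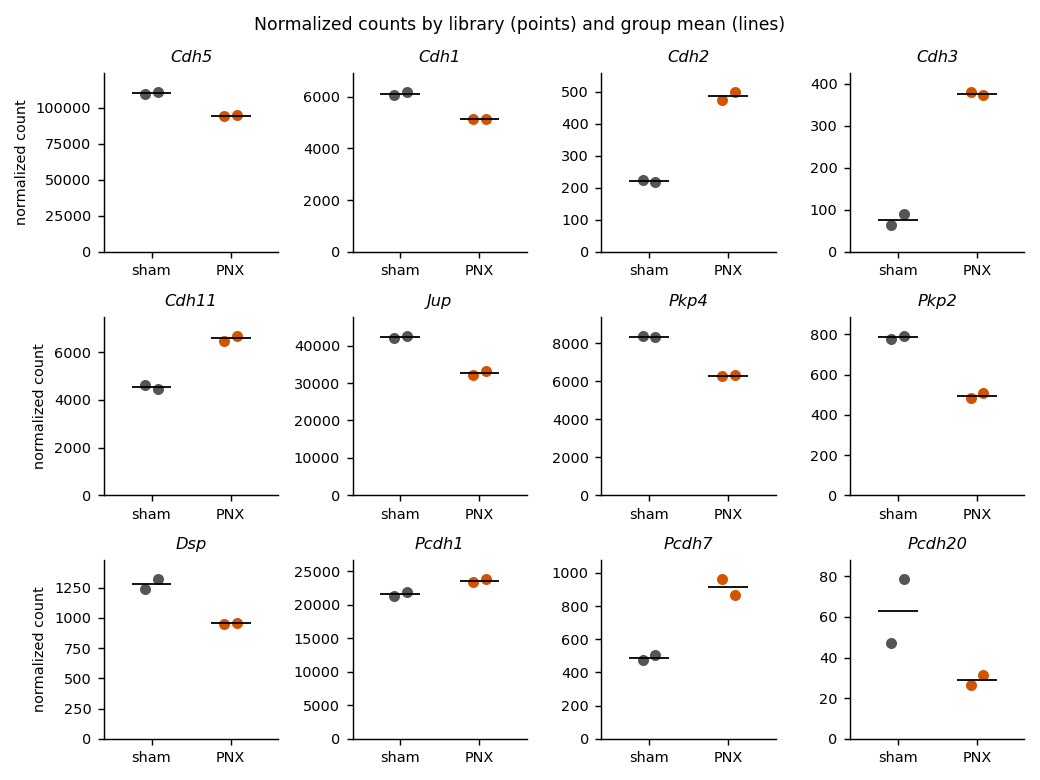
Normalized counts (vertical axes, from 0) of 12 members in each of the 4 libraries, with points for libraries and lines for group means. Points of the same group lie close together for most genes, while the sham libraries of Pcdh20 lie apart at 47.1 and 78.5. The groups do not overlap in any panel, a gap that 81.2% of all genes tested also showed.

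All 7 tested plaque and catenin members were downregulated under TMM scaling, beside 27.8% of all genes tested, with log2 fold changes from -0.67 to -0.10 and a median of -0.38. Other genes of the inner side of the junction that were not members did not all fall, as Ctnnb1 was not called (0.04) and Ctnnal1 (0.27) and Evpl (0.33) were upregulated. Upstream sequences of 250 bases were read for 4 of the 7 members, leaving out Ctnna1, Pkp2 and Pkp3, so they do not stand for the whole group. They made 6 windows because Pkp4 and Ctnnd1 had 2 start sites each. Those of Jup, Dsp and the second start of Pkp4 are given because these genes lie in the group in which all tested members fell, with plakoglobin and desmoplakin as the core of the desmosomal plaque. The letters are RefSeq's for GRCm38.p6, in lower case on the strand of the gene, with capitals for CAGGTG or CACCTG (an E-box on either strand, bound by the Snail family and other factors) and for GGAA or TTCC (the core of ETS sites on either strand). The windows are chr11:100397791-100398040 on the minus strand for Jup, chr13:38151044-38151293 on the plus strand for Dsp and chr2:59161619-59161868 on the plus strand for Pkp4.
Jup: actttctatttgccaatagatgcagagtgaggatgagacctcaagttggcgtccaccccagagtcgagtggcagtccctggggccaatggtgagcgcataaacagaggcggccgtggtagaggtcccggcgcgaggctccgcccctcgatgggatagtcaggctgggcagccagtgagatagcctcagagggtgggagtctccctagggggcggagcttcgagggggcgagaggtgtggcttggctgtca
Dsp: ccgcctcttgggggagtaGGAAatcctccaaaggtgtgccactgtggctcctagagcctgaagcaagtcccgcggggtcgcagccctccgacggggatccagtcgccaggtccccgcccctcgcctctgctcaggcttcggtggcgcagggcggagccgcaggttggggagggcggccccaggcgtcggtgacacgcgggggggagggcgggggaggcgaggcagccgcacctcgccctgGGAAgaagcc
Pkp4: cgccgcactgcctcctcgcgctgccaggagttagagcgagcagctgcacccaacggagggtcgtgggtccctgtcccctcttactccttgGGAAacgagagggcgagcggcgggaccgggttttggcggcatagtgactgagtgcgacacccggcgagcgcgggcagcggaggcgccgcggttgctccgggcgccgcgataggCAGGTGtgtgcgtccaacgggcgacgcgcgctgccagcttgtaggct
Matches of the 2 motifs can overlap by 1 letter, and a match is a run of letters and not a binding site. The E-box letters occurred in 1 of the 6 windows, that of Pkp4, 47 bases before the start site, and in 17.2% of all 32851 windows of this length. The ETS core occurred in 5 of the 6 windows, all but that of Jup, and in 93.4% of all windows.

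Plakoglobin, the product of Jup, is the one catenin found in both adherens junctions and desmosomes. Jup had 42167 and 42635 normalized counts in sham and 32177 and 33117 after PNX. The 2 groups lay well apart, and Jup fell by 23.0% (log2 fold change -0.38, SE 0.018, edgeR adjusted p = 5.5e-28). Desmoplakin, the product of Dsp, ties the plaque to intermediate filaments and had 1238 and 1319 against 953 and 956 normalized counts. The groups did not overlap, and the log2 fold change of Dsp was -0.42 (SE 0.049, edgeR adjusted p = 3.3e-11).

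Plakophilins are armadillo-repeat proteins of the plaque. Pkp4, whose product is found mostly at adherens junctions and was the most abundant of the 4 in FPKM, had 8380 and 8299 normalized counts in sham and 6265 and 6309 after PNX, again without overlap (log2 fold change -0.41, SE 0.024, edgeR adjusted p = 1.5e-23). Pkp2, known from the heart and from simple epithelia, fell the most, from 777 and 793 to 481 and 508 normalized counts (log2 fold change -0.67, SE 0.063, edgeR adjusted p = 2.5e-14). Pkp3 had 395 and 372 against 291 and 344 normalized counts (log2 fold change -0.28, SE 0.0865, edgeR adjusted p = 0.0036). The call of Pkp3 was lost without PNX replicate 1 (-0.16, edgeR adjusted p = 0.20) or sham replicate 1 (-0.24, edgeR adjusted p = 0.048) and with DESeq2, while Pkp1, a plakophilin of stratified epithelia, had at most 4 reads in any library.

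The other catenins among the members also fell. Ctnnd1 encodes p120-catenin, which keeps VE-cadherin at the cell surface, and had 34440 and 34912 normalized counts in sham and 27591 and 28132 after PNX (log2 fold change -0.32, SE 0.018, edgeR adjusted p = 5.9e-24). Ctnna1 encodes alpha-catenin, the link to actin, and had 44059 and 44506 against 40947 and 41605 (log2 fold change -0.10, SE 0.017, edgeR adjusted p = 4.7e-07). No catenin library of one group lay within the range of the other, a gap that 81.2% of all genes tested also showed. Ctnnb1, which encodes beta-catenin and was not a member, had 45293 and 45360 against 46719 and 46366 normalized counts and was not called (log2 fold change 0.04, SE 0.017, edgeR adjusted p = 0.040).

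Scaling the libraries to the 12 endothelial markers in place of all genes raised the median of all genes by 0.27 on the log2 scale, and the plaque group then no longer stood on one side of 0. Pkp2 (-0.40), Dsp (-0.15), Pkp4 (-0.14) and Jup (-0.11) remained downregulated under that scaling, Ctnnd1 (-0.05) and Pkp3 (-0.01) were not called, and Ctnna1 was upregulated (0.17). Under TMM scaling 9 of the 12 epithelial markers were downregulated, with a median log2 fold change of -0.54 over the list. The keratins went the other way, with Krt8 (0.11) and Krt19 (0.24) upregulated and Krt18 (0.09) not called. The part of epithelial RNA in the values of Dsp, Pkp2 and Pkp3 was not tested.

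**Figure D3:**
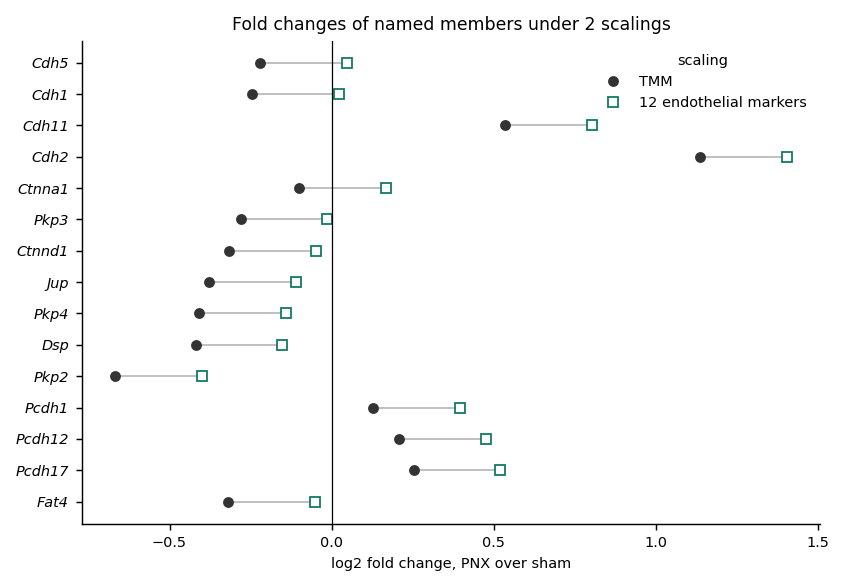
Log2 fold changes (horizontal axis) of 15 members with libraries scaled by TMM (filled circles) and to 12 endothelial markers (open squares). The second scaling moves every gene to the right by nearly the same amount, which carries Cdh5, Cdh1 and Ctnna1 from below 0 to above it and leaves Pkp2, Dsp, Pkp4 and Jup below it.

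RNA of the desmosomal cadherins was almost absent, whereas Cdh5, a partner of the catenins, was the most abundant member. Of the 9 desmogleins and desmocollins, 5 had no read in any library (Dsc1, Dsg1a, Dsg1b, Dsg3 and Dsg4), a count that allows up to 0.0589 to 0.0725 CPM in these libraries. Dsg1c had 1 read in 1 library, Dsc3 had between 2 and 5 reads and Dsc2 between 6 and 12. Dsg2, the desmoglein of simple epithelia, which is also present without desmosomes on some ECs, was the only desmosomal cadherin tested. It had 222 and 224 normalized counts in sham and 318 and 309 after PNX, so it rose while the plaque genes fell (log2 fold change 0.49, SE 0.095, edgeR adjusted p = 7.8e-06). At 0.529 FPKM in sham and 0.748 FPKM after PNX it stood far below Jup at 115 and 89.1 FPKM.

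Fat, Dachsous and Celsr proteins are very large cadherins that act in planar cell polarity and growth control. All 7 were tested, 3 were upregulated, 1 was downregulated and 3 were not called, beside 29.3% and 27.8% of all genes tested. With the DESeq2 Wald test 1 was called upregulated, since Dchs1 (adjusted p = 0.028) and Celsr2 (adjusted p = 0.022) missed the threshold. Fat4, the homologue of fly Fat, a Dachsous receptor that acts upstream of the Hippo pathway, had 2518 and 2484 normalized counts in sham and 1934 and 2081 after PNX. Both post-PNX libraries lay below sham (log2 fold change -0.32, SE 0.037, edgeR adjusted p = 1.9e-11), and under the scaling to endothelial markers the value was -0.05 and the call was lost. Its ligand Dchs1 had 2184 and 2310 against 2582 and 2388 normalized counts (log2 fold change 0.15, SE 0.037, edgeR adjusted p = 3.5e-04). The groups of Dchs1 did not overlap but lay close, and the call was lost without PNX replicate 1 (0.09) or sham replicate 1 (0.11).

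Fat1, which is best known for binding actin regulators at cell edges, had 2286 and 2313 normalized counts in sham and 2796 and 2715 after PNX (log2 fold change 0.26, SE 0.034, edgeR adjusted p = 7.3e-10). Celsr2, a homologue of flamingo in planar polarity, had 1968 and 1915 against 2151 and 2158 (log2 fold change 0.15, SE 0.037, edgeR adjusted p = 3.5e-04). In neither gene did the groups overlap. Celsr1, a planar polarity gene with a known part in lung branching, had 920 and 959 against 850 and 838 normalized counts and just missed the threshold (log2 fold change -0.15, SE 0.053, edgeR adjusted p = 0.010), with a value of 0.12 under the scaling to endothelial markers. Fat3 (0.08) and Fat2 (0.27, with at most 39.3 normalized counts) were not called.

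Of the 12 non-clustered protocadherins, 8 were tested, 6 were upregulated and 1 was downregulated, beside 29.3% and 27.8% of all genes tested, with a median log2 fold change of 0.28. The DESeq2 Wald test called 5 of the 8 upregulated, leaving out Pcdh19, and did not call Pcdh20. The highest in FPKM was Pcdh1, which had 21291 and 21813 normalized counts in sham and 23395 and 23748 after PNX (log2 fold change 0.13, SE 0.019, edgeR adjusted p = 1.7e-08). Pcdh12 encodes VE-cadherin-2, a protocadherin of ECs, and had 5303 and 5405 against 6252 and 6118 (log2 fold change 0.21, SE 0.025, edgeR adjusted p = 1.2e-10). Pcdh17 had 6603 and 6411 against 7798 and 7716 normalized counts (log2 fold change 0.25, SE 0.024, edgeR adjusted p = 2.2e-14). For all 3 genes both post-PNX libraries lay above both sham libraries, and the endothelial scaling left the direction as it was, at 0.40, 0.48 and 0.52.

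Larger differences were found among the less abundant protocadherins, which are named here after their values were seen. Pcdh7 had 474 and 505 normalized counts in sham and 961 and 866 after PNX (log2 fold change 0.91, SE 0.063, edgeR adjusted p = 8.1e-20), and lay just inside 2-fold. Pcdh18 went from 1581 and 1440 to 1854 and 1896 (log2 fold change 0.31, SE 0.042, edgeR adjusted p = 2.9e-09). Pcdh19 had 173 and 108 against 232 and 197 normalized counts (log2 fold change 0.60, SE 0.13, edgeR adjusted p = 6.7e-05), but its sham libraries lay far apart, and without sham replicate 2 the value was 0.32 and the call was lost, while it was 1.00 without sham replicate 1.

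Pcdh20 was the one member downregulated beyond 2-fold. It had 47.1 and 78.5 normalized counts in sham and 26.5 and 31.2 after PNX, with a log2 fold change of -1.11 (SE 0.25, edgeR adjusted p = 9.4e-05). The sham libraries differed from each other by more than the lower of them differed from post-PNX libraries. Without sham replicate 2 the log2 fold change was -0.71 and the call was lost (edgeR adjusted p = 0.035). Pcdh15 was not called (0.75, SE 0.33, edgeR adjusted p = 0.043). Of the 4 that were not tested, Pcdh10 and Pcdh8 had no read in sham and had 11 and 4 and 2 and 4 reads after PNX, Pcdh11x had 4 and 6 against 13 and 7, and Pcdh9 had 17 and 7 against 9 and 7. Among the other settings that kept all 4 libraries, edgeR called Pcdh10 upregulated beyond 2-fold with no filter and with counts summed over transcripts. It called Pcdh11x so with summed counts. With no read in sham for the transcript used, Pcdh10 could pass a filter only through its post-PNX libraries. These calls rest on the same few reads and are not separate support.

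The clustered protocadherins (61 symbols) lie side by side on chromosome 18 as alpha, beta and gamma genes. That chromosome held 73 of the 120 members, with Cdh2, Ctnna1 and others from outside the clusters among them. In the alpha and gamma clusters each symbol stands for a variable first exon joined to the constant exons, and the deposited count of every symbol included reads of these constant exons. In each library 13 of 14 alpha symbols had counts within 1.1 times the lowest of the cluster, and so had 24 of 25 symbols that end on the gamma constant exons (the Pcdhg symbols together with Pcdha4-g, Pcdha6-g and Pcdha7-g). The exceptions were Pcdhac2 and Pcdhgc3. All 14 alpha symbols were downregulated and all 25 gamma symbols were upregulated by edgeR's test, but these calls repeat the same reads and are not separate results.

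**Figure D4:**
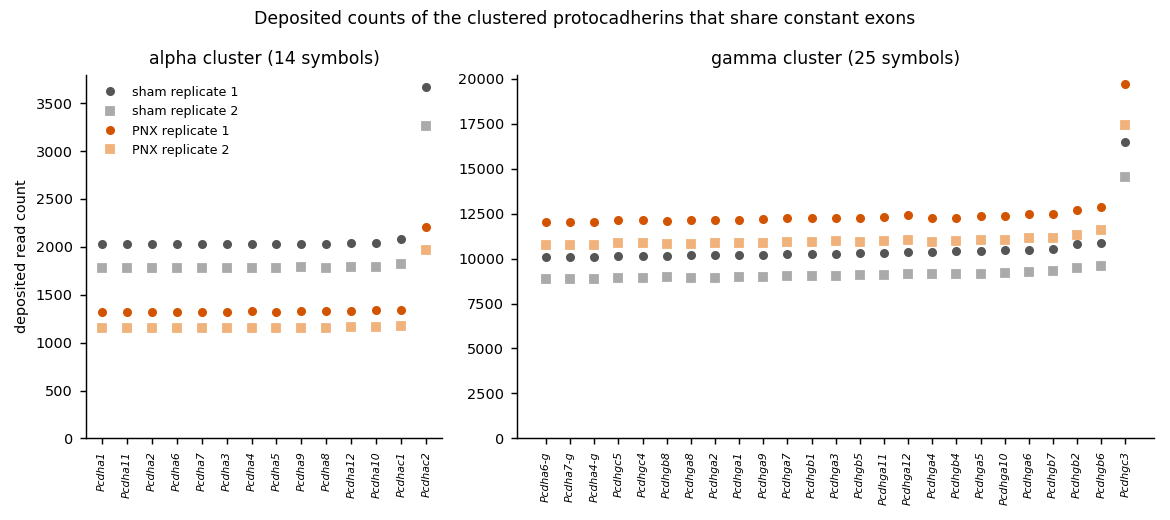
Deposited read counts (vertical axes, from 0) of the 14 alpha and 25 gamma protocadherin symbols in the 4 libraries, ordered by the count in sham replicate 1. The points run nearly level within each library up to the last symbol, with sham above post-PNX in the alpha cluster and post-PNX above the sham library of the same replicate number in the gamma cluster.

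The lowest count of each cluster was taken as the shared part and the count above it as the part of a symbol's own, a division made after the tables were seen. The shared alpha count was 2026 and 1777 reads in sham and 1321 and 1150 reads after PNX, which gave a log2 fold change of -0.50 (SE 0.042, edgeR adjusted p = 4.8e-16). The shared gamma count was 10079 and 8863 reads in sham and 12044 and 10750 after PNX, with a log2 fold change of 0.39 (SE 0.021, edgeR adjusted p = 7.7e-24). Normalized for depth, both post-PNX libraries lay below sham for alpha (1298 and 1281 against 1835 and 1811) and above sham for gamma (11835 and 11978 against 9131 and 9035).

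In the alpha cluster nearly all own reads belonged to Pcdhac2, the last of the variable exons, with 94.4% and 94.8% in sham and 92.1% and 92.2% after PNX. Its own reads numbered 1646 and 1487 in sham and 887 and 817 after PNX (log2 fold change -0.76, SE 0.048, edgeR adjusted p = 3.8e-21). Pcdhac1 had 51 and 41 own reads in sham and 23 and 25 after PNX (log2 fold change -0.81, SE 0.26, edgeR adjusted p = 0.0058). Only 4 of the 14 alpha symbols had enough own reads for a test, and the others, Pcdha10 (0.46) and Pcdha12 (0.24), had at most 20 own reads in a library and were not called.

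In the gamma cluster 22 of 25 symbols could be tested on own reads, 6 were upregulated and 1 was downregulated, beside 29.3% and 27.8% of all genes tested, so the share upregulated was near that of all genes. Their median log2 fold change was 0.07. Pcdhgc3 held 53.7% and 52.6% of the own reads in sham and 58.2% and 57.7% after PNX. It had 6407 and 5656 own reads in sham and 7641 and 6679 after PNX, which after normalization did not overlap (log2 fold change 0.37, SE 0.024, edgeR adjusted p = 1.7e-20). Pcdhgc4 had 62 and 48 against 120 and 93 own reads (log2 fold change 1.07, SE 0.18, edgeR adjusted p = 3.2e-07), and Pcdhgc5 had 35 and 34 against 92 and 86 (log2 fold change 1.49, SE 0.20, edgeR adjusted p = 4.6e-09). Pcdhga7, Pcdhga12 and Pcdhgb6 were the other upregulated symbols, at 0.40, 0.31 and 0.23.

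Pcdhgb4 went the other way on its own reads, with 313 and 278 reads in sham and 218 and 219 after PNX (log2 fold change -0.31, SE 0.098, edgeR adjusted p = 0.0045). Pcdhgb7, called upregulated on all its reads, had a log2 fold change of -0.03 on its own reads and was not called. The summed own reads came to 86.1% and 88.2% of the shared count for alpha in sham and 72.9% and 77.0% after PNX, and to 118% and 121% against 109% and 108% for gamma. In both clusters the own reads were thus fewer per shared read after PNX, a difference that was not tested.

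**Figure D5:**
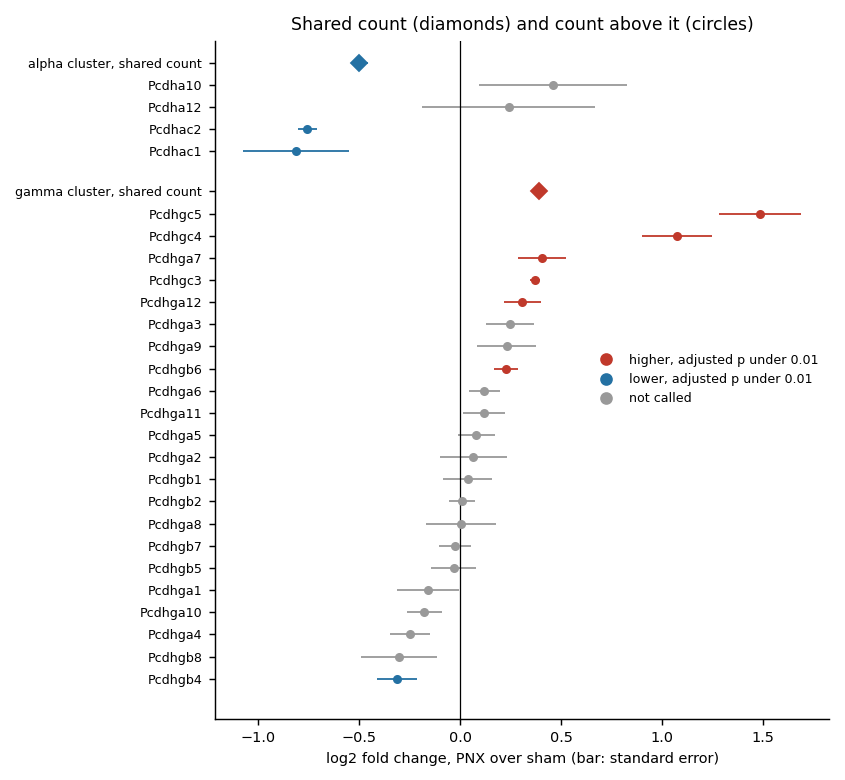
Log2 fold changes (horizontal axis, with standard errors) of the shared count of each cluster (diamonds) and of the count above it for the symbols tested (circles). Pcdhac2 and Pcdhac1 lie on the side of the shared alpha count, and the gamma symbols spread on both sides of 0, from Pcdhgb4 at -0.31 to Pcdhgc5 at 1.49.

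Beta protocadherins have no shared constant exon, so their counts can be read gene by gene, although their coding exons are alike and reads that match several of them may be divided in a way not given in the sources used here. Of 22 beta genes 21 were tested, and their levels were low, from 0.190 to 2.99 FPKM with Pcdhb17 the highest. Only 6 were called, 4 upregulated (Pcdhb9, Pcdhb11, Pcdhb17 and Pcdhb20, at 0.24 to 0.34) and 2 downregulated (Pcdhb14 and Pcdhb18, both at -0.30). Pcdhb9 had 517 and 564 normalized counts in sham and 666 and 690 after PNX, with no overlap, and was the beta gene that kept its call without any 1 of the libraries. The other 5 lost it in at least 1 of those fits, and Pcdhb18 was at -0.15 without PNX replicate 2. The beta share called, 4 (19.0%) and 2 (9.5%) of 21, was below the 29.3% and 27.8% of all genes tested. Whether the low levels had a part in that share was not tested.

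Other genes of cell-cell adhesion, none of them a member, were taken as a list of 30. Of the 27 tested, 8 (29.6%) were upregulated and 10 (37.0%) were downregulated, beside 29.3% and 27.8% of all genes tested. The other 9 were not called, and the median log2 fold change over the 27 was -0.07 beside 0.00 for all genes. Ptprb encodes VE-PTP, the phosphatase that binds VE-cadherin in ECs, and had 112326 and 112474 normalized counts in sham and 68569 and 67287 after PNX (log2 fold change -0.73, SE 0.016, edgeR adjusted p = 1.4e-45). Its post-PNX libraries lay far below both sham libraries, and its fall was larger than that of Cdh5, without a test of that difference. The scaffold genes Mllt4 (afadin, -0.27), Pard3 (-0.29), Magi1 (-0.28) and Arvcf (-0.30) were downregulated, as were the plakin Ppl (-0.57) and Pvrl3 (nectin-3, -0.38), while Pvrl2 (nectin-2, 0.64), the plakin Evpl (0.33), Fjx1 (a kinase-like regulator of Fat and Dachsous, 1.16) and Adam10 (a protease that sheds VE-cadherin, 0.21) were upregulated. Of the 3 genes called beyond 2-fold, Fjx1 and Cdhr1 (2.58, with at most 47.9 normalized counts) were higher and Cdhr3 (-1.03) was lower.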

How the data were processed

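RNA was sequenced from lung ECs with a stranded mRNA kit and paired ends, per the study's methods, and aligned to mm10 with STAR, per the submitters' processing notes; the counting program is not given in the sources used here. For each library the authors deposited a whole-number read count for each of 33068 RefSeq transcripts, with the FPKM (scaled to transcript length and to the total over all transcripts) and the TPM beside it. The deposited FPKM served for levels between genes and the deposited TPM was not used.

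Since a read counts for every transcript it overlaps, the transcript with the most counts was taken for each of 24063 symbols. The tests were run on counts in edgeR 4.0.16 (R 4.3.3). There filterByExpr kept 16208 genes, TMM factors lay between 0.9985 and 1.0026, and post-PNX was set against sham by the quasi-likelihood test, with group as the only term and Benjamini-Hochberg adjustment over all genes tested. SE was obtained as the absolute log2 fold change over the root of the F statistic. Genes counted as called at an adjusted p under 0.01, and as called beyond 2-fold with a log2 fold change beyond 1. With 2 libraries per group an exact permutation test cannot pass any usual threshold, and p-values measure only the spread between these libraries. That spread was little above counting error. The mean chi-square per gene was 1.77 between sham and 1.53 between post-PNX replicates, beside 134 and 119 between groups. Small p-values thus reflect mainly counting error, and the spread between mice was not tested.

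Members and gene lists were chosen with earlier results of these data known. Named with values were the 11 listed members, Cdh1, Cdh2, Cdh3, Cdh5, Cdh11, Cdh13, Pcdh1, Pcdh12, Pcdh17, Dsg2, Pkp4, all members past both thresholds and the 3 with the highest FPKM in each role group; other members named were chosen after their values were seen. Positions came from RefSeq on GRCm38.p6 (mm10) for 119 of 120 members, and 31 had a promoter window. The script was tested on simulated data. Alternatives were DESeq2 1.42.0, its size factors, the library size by itself, scaling to 12 endothelial markers, no filter, a mean of at least 50 counts, glmTreat, an adjusted p under 0.05, counts summed over transcripts, a replicate block, leaving out each library and, added after the tables were seen, shared protocadherin counts taken once. Floors cover counting error only.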

Additional observations from a re-analysis of the deposited data

How the results depend on the processing

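The count of upregulated members fell from 46 to 21 without Pcdha and Pcdhg and to 27 with shared protocadherin counts taken once, and that of downregulated members from 27 to 13 and 16. Scaling to 12 endothelial markers gave 7 members upregulated beyond 2-fold in place of 4, and 9649 upregulated and 1325 downregulated genes in all, 82 of them lower beyond 2-fold. Under it Cdh1 (0.022), Cdh5 (0.047), Celsr1 (0.12) and Ctnna1 (0.17) changed sign, as did 11 members in all, while the other scalings changed the sign of 0 members. A mean of at least 50 counts left 2 members higher beyond 2-fold and 160 genes lower beyond it. glmTreat left 1 member (Cdh3), and 604 genes higher and 39 lower. Pcdh20 was the member downregulated beyond 2-fold; that count was 0 in edgeR with endothelial scaling, with a mean of at least 50 counts and with glmTreat, also at an unadjusted p under 0.05 (0 in each), and 0 with the DESeq2 Wald test (1 at an unadjusted p under 0.05). Leaving out 1 library gave 0 to 1, with 0 without sham replicate 2 or PNX replicate 1. Cdh26 ranged from -0.13 (without PNX replicate 2) to 0.26 (without PNX replicate 1), and Pcdhgb7 was at -0.025 on its own reads. The cause of these differences was not tested, except that a filter or division of reads removes members from the test by construction.

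Of the 34 called members outside Pcdha and Pcdhg, 23 kept the call without any 1 library. The DESeq2 Wald test did not call 12 of the 34, namely Cdh8, Cdh13, Celsr2, Dchs1, Pkp3, Pcdh19, Pcdh20 and the beta genes Pcdhb11, Pcdhb14, Pcdhb17, Pcdhb18 and Pcdhb20. The replicate block left 46, 27, 4 and 1 members called as in the fit without it; replicate numbers are shared only as names, since the libraries came from different mice, and deviations of same-numbered libraries correlated at 0.02 over 14298 genes. With 2 libraries per group, values within pools of mice and small differences in genes with few reads were not resolved.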
